A study of Mus musculus with 2 samples.

Results

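The Ly6/uPAR family is a group of small proteins built on the three-finger fold, in which disulfide bonds hold several loops together. Most members are tied to the outer face of the cell membrane by a glycosylphosphatidylinositol (GPI) anchor, and a few, such as SLURP1, are secreted. In skin the family is known for SLURP1, whose loss causes the thickened palms and soles of mal de Meleda and which modulates nicotinic acetylcholine receptors, and for several membrane members that mark keratinocyte (KC) stages or immune cells.

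The transcripts of 7 members are described here by their levels in the cells of Chrm3 knockout (KO) epidermis: Slurp1, Lynx1, Lypd3, Ly6d, Ly6g6c, Ly6a and Ly6e. They were taken by their gene symbols, 7 of the 27998 genes counted in each library, and all 7 were found in both libraries. Single-cell RNA sequencing was done on the epidermis of male C57BL/6J mice with a knockout of Chrm3, the M3 muscarinic acetylcholine receptor, at postnatal day 0, with 1 library from each of 2 mice (KO mouse 1 and KO mouse 2). The skin was incubated overnight in a separation buffer before the epidermal cells were taken, and dead cells were removed with a kit. The wild-type libraries of the study were not analysed here, so every value is a level in KO epidermis and no effect of the genotype was measured. RNA was counted and not protein.

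With the study's filter, 7607 and 11881 cells of the respective mice remained, with medians of 10480 and 10577 unique molecular identifiers (UMIs, 1 per captured transcript). Chrm3 itself was counted with 13 and 19 UMIs, which is 0.137 and 0.128 CPM (the usual counts-per-million scale, a gene's UMIs over all UMIs of the cells concerned), above the 0.0316 and 0.0202 CPM that a count of 0 allows. Interfollicular epidermis (IFE) stages and other cell types were named from marker genes without the 7 members, so each name stands for cells that are like that type. Krt14, a basal keratin, stood at 18719 and 20217 CPM in basal 1 KCs, and Krt10, a suprabasal keratin, at 28384 and 27134 CPM in differentiated KCs. Both genes are in the marker lists used for naming, so these levels are no separate check of the names. Several lists also hold markers that the study reports for its clusters, found partly in these cells. The libraries share 127 barcodes, 34 of them among the kept cells. Values are given as KO mouse 1 and then KO mouse 2, and intervals are exact 95% Poisson intervals that cover counting error only.

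Of the members, 5 lie together on chromosome 15 of GRCm38 (mm10), between positions 74724318 and 74998031, a stretch of 273.7 kb that holds 16 genes of the files, 12 of them members or other genes of the family. Slurp1 (74724318 to 74728034), Lynx1 (74747852 to 74753046), Ly6d (74762056 to 74763620) and Ly6a (74994877 to 74998031) lie on the minus strand, and Ly6e (74955051 to 74959905) on the plus strand. Lypd3 lies on chromosome 7 (24636550 to 24641118, plus strand), and Ly6g6c on chromosome 17 (35065388 to 35070050, plus strand). Slurp1 overlaps Them6, Lypd3 the antisense gene Gm26550, and Ly6g6c the gene Mpig6b, each on the opposite strand. Whether the counting used strand is not given in the sources used here, so the counts of these 3 members carry that uncertainty. The counts of Ly6a carry another, since Ly6c1, Ly6c2 and Ly6i are close copies of it.

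Lypd3 and Ly6g6c, which both stood highest among the IFE stages in differentiated KCs and were both raised in the upper hair follicle, are shown with the sequence upstream of the start that RefSeq gives them, on GRCm38, the 2 of 7 members found in the RefSeq promoter table used here. The capitals mark matches to the motifs searched, on either strand. Distances are counted from the RefSeq start. The Lypd3 stretch ends before that start, because bases annotated as its untranslated region were left out. The Ly6g6c stretch lies inside the gene interval given above, which begins further upstream. The Lypd3 stretch is chr7:24636320-24636549 (plus strand, 230 bases, 63.9% G and C) and the Ly6g6c stretch is chr17:35067075-35067324 (plus strand, 250 bases, 55.2% G and C).
Lypd3: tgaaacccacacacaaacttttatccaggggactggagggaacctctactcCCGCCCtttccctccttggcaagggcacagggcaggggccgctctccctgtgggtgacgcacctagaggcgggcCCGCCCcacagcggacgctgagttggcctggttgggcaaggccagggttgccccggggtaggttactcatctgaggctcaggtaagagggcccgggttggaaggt
Ly6g6c: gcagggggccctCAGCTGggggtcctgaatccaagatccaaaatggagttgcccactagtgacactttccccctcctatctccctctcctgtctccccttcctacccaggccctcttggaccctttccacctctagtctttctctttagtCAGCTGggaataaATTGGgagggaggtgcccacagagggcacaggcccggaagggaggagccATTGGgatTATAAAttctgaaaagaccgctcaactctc
The Ly6g6c stretch held the TATA box TATAAA 25 bases before the start, CCAAT at 2 places and CAGCTG at 2 places. The Lypd3 stretch held the GC box GGGCGG at 2 places, 194 and 120 bases before the start, and no TATAAA or CCAAT. Among all 27025 promoters of the table, TATAAA was found in 12.97%, CCAAT in 34.46%, GGGCGG in 32.94% and CAGCTG in 12.77%. Neither stretch held TGANTCA (6.87% of promoters), AACCNGTT (1.71%) or GCCNNNGGC (13.56%). These are matches of letters and not shown to be bound.

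The members fell into different patterns across the IFE. Ly6d, a GPI-anchored protein used as a marker of early B cells and of stratified epithelia, was already high in transition KCs. Lypd3 (C4.4A), a GPI-anchored protein of suprabasal squamous epithelium, and Ly6g6c reached their highest level in differentiated KCs, and Slurp1 stood above 10 CPM in no other stage. The differentiated cells with Slurp1 were rich in Lor, the study's marker of terminally differentiated cells. Ly6a (Sca-1), known as a marker of stem and progenitor cells, and Ly6e, an interferon-inducible member, were instead higher in dividing basal KCs than in resting ones. Lynx1, a GPI-anchored modulator of nicotinic receptors, stayed at a few UMIs in every stage.

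**Figure D1:**
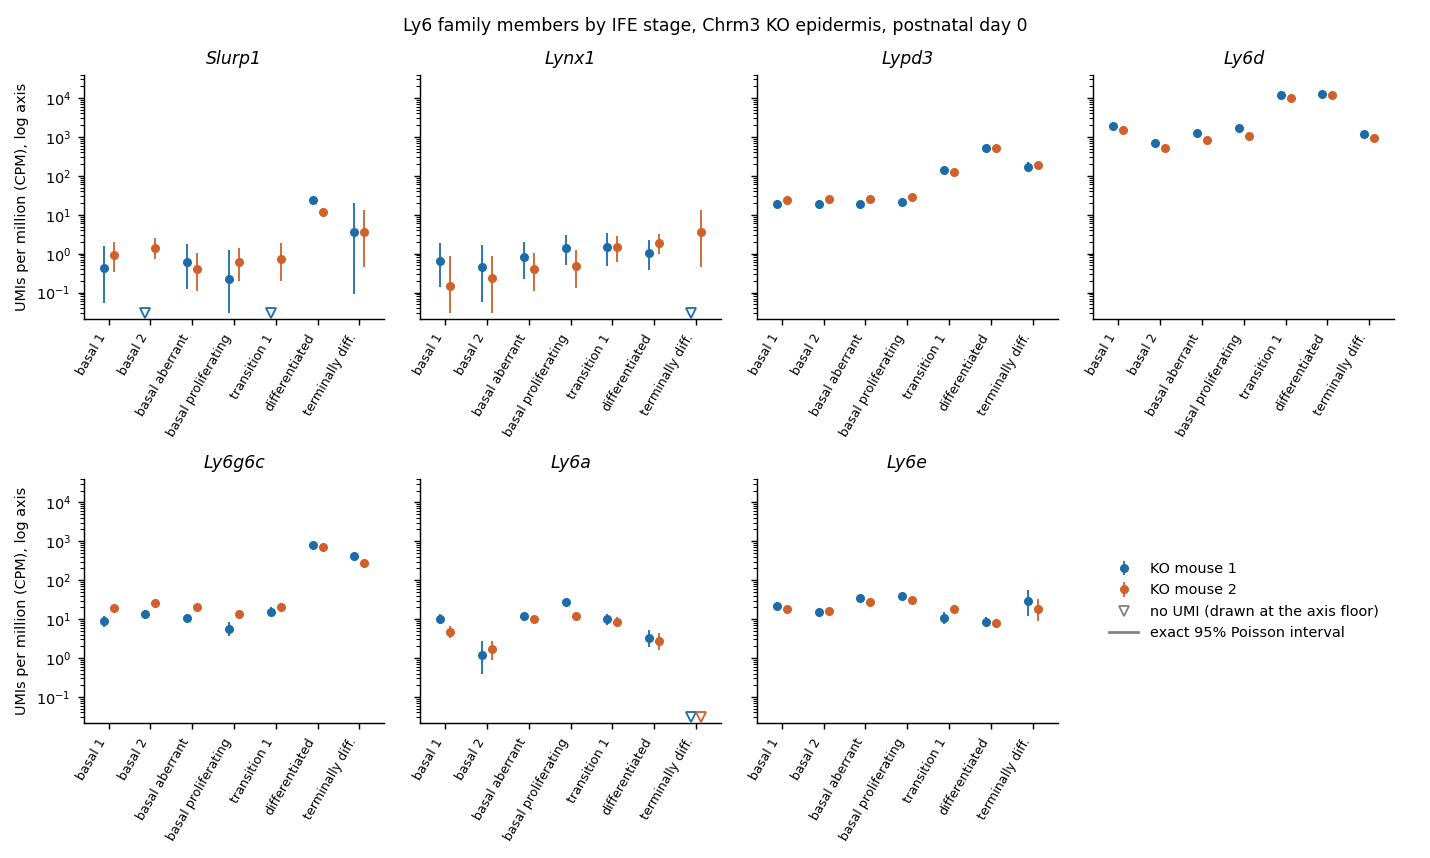
Level of each of the 7 members in the IFE stages (columns), as CPM on a log axis, with 1 point for each KO mouse, exact 95% Poisson intervals as bars and open triangles for no UMI. Ly6d is at 9727 CPM or more in transition and differentiated KCs of both mice, Lypd3 and Ly6g6c peak in differentiated KCs, and Slurp1 is above 10 CPM only in differentiated KCs.

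From resting basal KCs (the mean of basal 1 and basal 2) to transition KCs, 3 of the 6 members tested were higher and none was lower, beside 27.5% of all 11658 genes called in either direction. The median log2 change of the 6 members was 0.85, against -0.004 for all genes. For resting basal KCs, the CPM values average basal 1 and basal 2 directly. The tested log2 changes and folds instead average them on the log scale. Where basal 1 and basal 2 differ, these folds are larger than the ratio of the CPM values. Ly6d stood at 1899 and 1492 CPM in basal 1 KCs, at 678 and 534 CPM in basal 2 KCs, and at 11668 and 9727 CPM in transition KCs. The groups did not overlap, and Ly6d was 11-fold higher in transition KCs than this log-scale mean (log2 change 3.46 ± 0.16 SE, edgeR adjusted p = 8.49e-10). Lypd3 stood at 19.2 and 25.4 CPM in resting basal KCs and at 140 and 126 CPM in transition KCs. The basal values lie near the 16.4 and 25.5 CPM of melanocytes, and the level in transition KCs was 6.07-fold higher than this background without overlap (log2 change 2.60 ± 0.14 SE, edgeR adjusted p = 2.88e-09). Ly6a stood at 5.75 and 3.20 CPM in resting basal KCs and at 9.92 and 8.58 CPM in transition KCs, which is 34 and 47 UMIs. It was 2.89-fold higher than the log-scale mean of basal 1 and basal 2 (log2 change 1.53 ± 0.41 SE, edgeR adjusted p = 0.0129). Basal 2 KCs held 1.17 and 1.67 CPM of Ly6a. Basal 1 KCs held 10.3 and 4.72 CPM, which overlapped transition KCs and lay above them in KO mouse 1. Transition KCs were not tested against basal 1 KCs alone. Slurp1, Ly6g6c and Ly6e did not pass the test at this step, and for each of them the values of the mice overlapped between the groups. Lynx1 had too few UMIs to be tested among the IFE stages. It was counted with 5 and 3 UMIs in resting basal KCs and 5 and 8 in transition KCs.

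The rise of Ly6d was seen across the cells and not in a few of them. In single transition cells the median level of Ly6d was 11765 and 9338 CPM, and the 10% of cells with the least Ly6d reached up to 6503 and 4685 CPM. In basal 1 cells the medians were 804 and 619 CPM, and the 10% with the most Ly6d began at 4952 and 3827 CPM. In both mice, then, at least 90% of the transition cells stood above at least 90% of the basal 1 cells.

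From transition to differentiated KCs, 5 of the 6 members tested passed the test, beside 28.1% of all genes. Slurp1, Lypd3 and Ly6g6c were higher and Ly6a and Ly6e lower, and the median log2 change of the 6 members was 1.2, against -0.02 for all genes. Slurp1 was counted with 0 and 4 UMIs in transition KCs and with 136 and 76 UMIs in differentiated KCs, which is 23.5 CPM (interval 19.7 to 27.7) and 11.7 CPM (9.23 to 14.7). The level in KO mouse 1 was above that in KO mouse 2 beyond their intervals, and both lay far above every transition value. The log2 change was 5.33 ± 0.67 SE (edgeR adjusted p = 2.15e-05). The size of this change depends on the mouse, with 4.05 without KO mouse 1 and 9.73 without KO mouse 2, the latter against a stage with no UMI, so that it is no measure of the size. With finer clusters, which place the Flg-led cells outside the differentiated stage, the call was lost and the direction turned (log2 change -0.87, adjusted p = 0.82).

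Ly6g6c stood at 15.5 and 21 CPM in transition KCs and at 785 and 708 CPM in differentiated KCs. The transition values lie near the 11.2 and 17.5 CPM of melanocytes, so that the 43.2-fold higher level in differentiated KCs is one over background (log2 change 5.43 ± 0.35 SE, edgeR adjusted p = 2.19e-08). Lypd3 stood at 140 and 126 CPM in transition KCs and at 534 and 525 CPM in differentiated KCs. It was 4.31-fold higher, with almost the same level in both mice (log2 change 2.11 ± 0.15 SE, edgeR adjusted p = 6.01e-08). Ly6d stood at 12496 and 11644 CPM in differentiated KCs, and its range overlapped that of transition KCs. The log2 change of 0.29 ± 0.19 SE did not pass the test (edgeR adjusted p = 0.292), but it did with the mouse as a block (adjusted p = 0.00807). Within each mouse, Ly6d was thus somewhat higher in differentiated than in transition KCs.

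The members with immune and progenitor associations went the other way at this step. Ly6a stood at 3.28 and 2.78 CPM in differentiated KCs, from 19 and 18 UMIs, and below the 9.92 and 8.58 CPM of transition KCs in both mice. The log2 change was -1.48 ± 0.48 SE (edgeR adjusted p = 0.0313). Ly6e stood at 8.45 and 7.86 CPM in differentiated KCs and at 10.8 and 18.4 CPM in transition KCs. It was lower without overlap (log2 change -0.79 ± 0.25 SE, edgeR adjusted p = 0.0305), by -1.15 without KO mouse 1 and by -0.21 without KO mouse 2. The calls of Ly6a and Ly6e were both lost with the finer clusters. Lynx1 was counted with 6 and 12 UMIs in differentiated KCs, which is 1.03 and 1.85 CPM, on both sides of the 1.46 CPM that it had in transition KCs of each mouse.

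**Figure D2:**
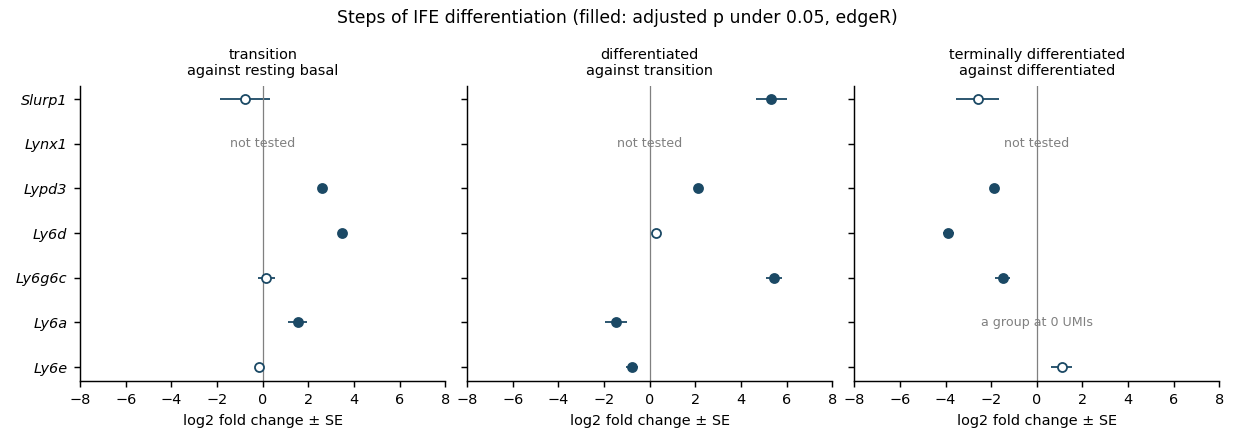
Log2 fold change (horizontal axis, ± SE) of each member at 3 steps of IFE differentiation, with filled points where the edgeR adjusted p is under 0.05 and grey text where a member was not tested or a group had no UMI. Ly6d rises at the first step, Slurp1 and Ly6g6c at the second, and Lypd3 at both, and Ly6d, Lypd3 and Ly6g6c are lower at the last.

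From differentiated to terminally differentiated KCs, 3 of the 6 members tested were lower and none was higher, beside 30.6% of all genes. The median log2 change of the 6 members was -2.23, against -0.04 for all genes. The terminally differentiated KCs were 43 and 52 cells with medians of 4080 and 8970 UMIs. They also held transcripts of genes that mark other cells. Dct, a melanocyte gene, stood at 150 and 121 CPM and Mki67, a proliferation gene, at 282 and 209 CPM. The 15 basal IFE markers summed to 8005 and 11679 CPM in them, and to 6030 and 6650 CPM in differentiated KCs. The paper reports that genes of basal KCs were raised in terminally differentiated Chrm3 KO KCs against wild-type ones. That is a contrast of genotypes, with other gene sets and other cell groups, and not the contrast of stages given here. Whether the transcripts found here were made by the cells themselves or carried over from others was not tested. Nor was their part in the members' levels.

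Ly6d stood at 1158 and 962 CPM in terminally differentiated KCs, against 12496 and 11644 CPM in differentiated KCs. The fall was 14.6-fold, without overlap (log2 change -3.87 ± 0.22 SE, edgeR adjusted p = 4.46e-09). Lypd3 stood at 172 and 190 CPM, which is 3.66-fold lower than in differentiated KCs (log2 change -1.87 ± 0.18 SE, edgeR adjusted p = 1.57e-06). Ly6g6c stood at 422 and 276 CPM, below both differentiated values (log2 change -1.50 ± 0.31 SE, edgeR adjusted p = 0.00187). This last call rests on where the differentiated stage ends. With finer clusters, the Flg-led cells form a group of their own. Ly6g6c was then instead higher in terminally differentiated KCs than in the cluster named differentiated (log2 change 1.40, edgeR adjusted p = 0.00757).

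Slurp1 was counted with 1 and 2 UMIs in terminally differentiated KCs, where a count of 0 would allow up to 10.7 and 5.49 CPM. Its log2 change of -2.59 ± 0.96 SE missed the threshold (edgeR adjusted p = 0.0516) and passed it with the mouse as a block (adjusted p = 0.0226) and under 4 other alternatives (adjusted p from 3.94e-05 to 0.0472). With finer clusters, however, the order of the values turned. Slurp1 then stood at 3.78 and 7.52 CPM, from 1 and 3 UMIs, in the cluster named terminally differentiated. In the cluster named differentiated, which lacks the Flg-led cells, it stood at 0 and 0.483 CPM. Ly6a had no UMI in terminally differentiated KCs of either mouse, and at this depth a difference from the 3.28 and 2.78 CPM of differentiated KCs was not detectable. Ly6e stood at 28.6 and 18.3 CPM from 8 and 10 UMIs (log2 change 1.09 ± 0.46 SE, edgeR adjusted p = 0.0874). Its values lay above those of differentiated KCs in both mice without passing the test.

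With finer clustering (resolution 1.2 in place of 0.8), suprabasal cells were regrouped. A cluster led by Krt79, with 199 and 251 cells, was named differentiated. Krt79 and Sdr16c6, among its leading genes, are also on the upper follicle list. Another cluster, led by Flg, the gene of the barrier protein filaggrin, had 84 and 88 cells and was named by the markers as a further transition stage. That name rests on 2 of its 10 leading genes, Cst6 and Klk7. Flg itself is on the list of terminally differentiated markers, so the name is not read as a stage before differentiated KCs. Together these clusters hold more cells than the 261 and 294 of the differentiated stage, so they also took in cells of other groups. No test was made between these clusters, since their own genes define them, but the 7 members were left out of the clustering. Ly6d stood at 11922 and 9895 CPM in the Stfa1-led transition cluster, at 12587 and 11440 CPM in the Krt79-led cluster, and at 11958 and 11324 CPM in the Flg-led cluster. It was thus level over these clusters and then lower, at 1300 and 920 CPM, in the Lce1m-led cluster, whose leading gene belongs to the late cornified envelope genes. Lypd3 went stepwise, from 138 and 123 CPM to 301 and 314 CPM and then to 779 and 748 CPM. Ly6g6c was low in the first, at 16.2 and 21.6 CPM, stood at 103 and 107 CPM in the Krt79-led cluster, and reached 1542 and 1417 CPM in the Flg-led cluster. Slurp1 had no UMI in either of the first 2 clusters of KO mouse 1 and at most 0.824 CPM in those of KO mouse 2, against 49.96 and 25.3 CPM in the Flg-led cluster. In the Lce1m-led cluster, Lypd3 stood at 193 and 165 CPM, Ly6g6c at 442 and 238 CPM, and Slurp1 at 3.78 and 7.52 CPM.

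**Figure D3:**
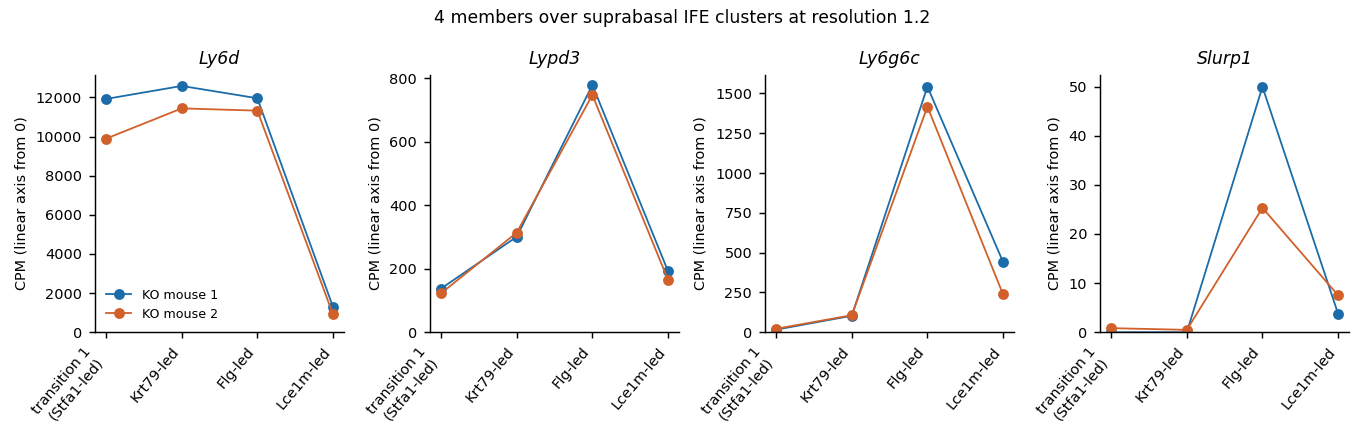
Level in CPM (linear axes from 0, a scale for each gene) of Ly6d, Lypd3, Ly6g6c and Slurp1 in 4 suprabasal IFE clusters at resolution 1.2, with 1 line for each KO mouse. Ly6d is high from the transition cluster on, Lypd3 climbs in steps, Ly6g6c and Slurp1 peak in the Flg-led cluster, and all 4 are lower in the Lce1m-led cluster.

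Slurp1 transcripts were held by few cells. At least 1 UMI was found in 14 of 261 (5.36%) and in 17 of 294 (5.78%) differentiated cells. In melanocytes, which should lack it, the share was 0.458% and 0.411%, at medians of 8786 and 9682 UMIs against 19347 and 17779 in differentiated KCs. With every cell thinned to 3000 UMIs, the shares were 1.92% and 2.41% in differentiated KCs and 0.236% and 0.139% in melanocytes. The share was higher in differentiated KCs at both depths, and the thinned melanocyte shares rest on 1 cell in each mouse.

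The 3 cells richest in Slurp1 held 72.1% and 55.3% of the UMIs of the stage, and the highest single cell held 43 and 17 UMIs. Among all kept cells, only 10 and 9 had 2 or more Slurp1 UMIs, and 9 and 8 of these were differentiated KCs. All 31 differentiated cells with Slurp1 also held Ly6g6c, Lypd3 and Ly6d, and 14 of 14 and 15 of 17 belonged to the Flg-led cluster. Of the other differentiated cells, 61.5% and 63.5% held Ly6g6c, 94.7% and 96.8% held Lypd3, and 100% in each mouse held Ly6d. The cells with Slurp1 were deeper than the others, with medians of 31363 and 28263 UMIs against 18738 and 17579, and none was called a doublet.

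The cells with Slurp1 also differed from the rest of the differentiated KCs in other members, which is given as a description, since the cells were picked by Slurp1. Ly6g6c stood at 2782 and 3060 CPM in them and at 545 and 514 CPM in the other differentiated cells. Lypd3 stood at 954 and 1010 CPM in them and at 484 and 485 CPM in the others. Ly6d went the other way, with 7926 and 7698 CPM in them and 13043 and 11971 CPM in the others. Flg stood at 25216 and 29997 CPM in them, against 1520 and 1074 CPM. In both mice, then, the cells with Slurp1 were those with more Ly6g6c, Lypd3 and Flg and less Ly6d.

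**Figure D4:**
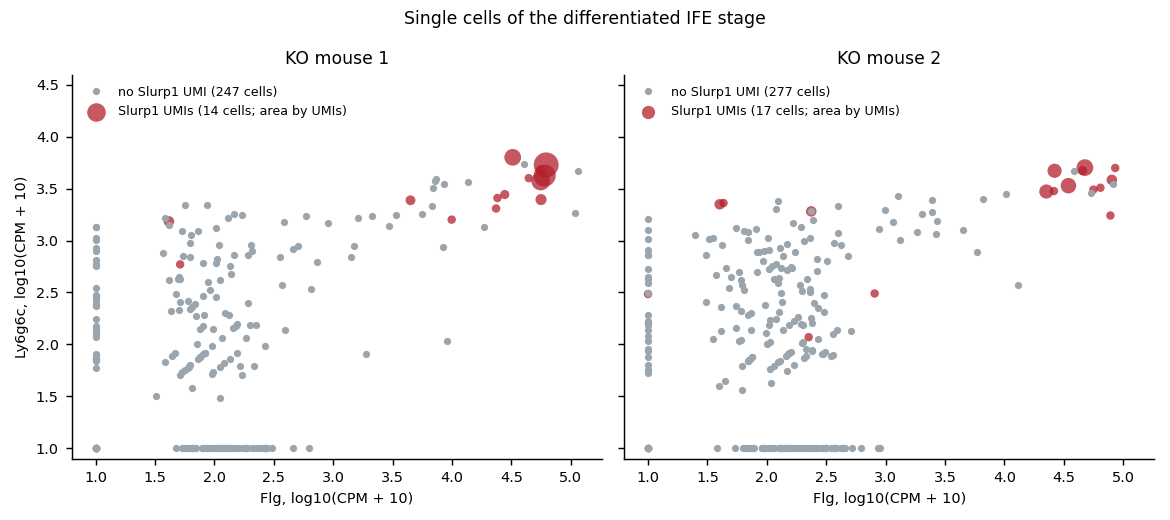
Single differentiated cells of each KO mouse by their level of Flg (horizontal axis) and Ly6g6c (vertical axis), both as log10(CPM + 10), with cells that hold Slurp1 UMIs in red, their area growing with the UMIs. The 14 and 17 cells with Slurp1 lie mostly at the upper right, where both other genes are high.

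Among the basal KCs, dividing and resting cells differed in Ly6a and Ly6e. In basal proliferating against resting basal KCs, 2 of the 6 members tested were higher and none was lower, beside 34.2% of all genes. That count lies near the share over all genes and is no result about the members as a group. The median log2 change of the 6 members was 0.18, against -0.004 for all genes. Ly6a stood at 27.8 and 12.2 CPM in proliferating KCs, from 122 and 99 UMIs, and at 5.75 and 3.20 CPM in resting ones. The groups did not overlap, and Ly6a was 5.26-fold higher than the log-scale mean of basal 1 and basal 2 (log2 change 2.40 ± 0.35 SE, edgeR adjusted p = 9.02e-05). Ly6e stood at 40.1 and 30.7 CPM in proliferating KCs and at 18.5 and 17.0 CPM in resting ones. It was 1.82-fold higher (log2 change 0.86 ± 0.17 SE, edgeR adjusted p = 0.00101). The resting group holds basal 1 and basal 2 KCs only. An unnamed IFE cluster led by Ccl27a, with 295 and 541 cells, stood at 15.6 and 15.1 CPM for Ly6a. For Ly6e it stood at 31.1 and 35.7 CPM. These values lie within the range of proliferating KCs, and the cluster was not tested.

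With the mouse as a block, 4 members passed the test in this comparison. Ly6d was added as higher (log2 change 0.29, adjusted p = 0.00281) and Ly6g6c as lower (log2 change -0.88, adjusted p = 0.0158). Ly6d stood at 1662 and 1074 CPM in proliferating KCs and at 1289 and 1013 CPM in resting ones, so that the difference is seen within each mouse while the mice overlap. Ly6g6c stood at 5.70 and 13.2 CPM in proliferating KCs and at 11 and 22.3 CPM in resting ones, and both groups lie near the 11.2 and 17.5 CPM of melanocytes. Lypd3 stood at 21.6 and 28.9 CPM in proliferating KCs and at 19.2 and 25.4 CPM in resting ones, in the range of the 16.4 and 25.5 CPM of melanocytes. The levels of Lypd3 and Ly6g6c in basal KCs are therefore not told apart from those of melanocytes, called background here, and are not read as expression. The same holds for their similar levels in hair follicle KCs, so that folds over these groups are folds over background. Whether these cells express either gene at a low level was not tested.

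Basal 2 KCs, the resting basal cluster led here by Pcsk2, held less Ly6d and Ly6a than basal 1 KCs. Of the 6 members tested, 2 were lower and none was higher, beside 9.62% of all genes. The median log2 change of the 6 members was -0.23, against 0.01 for all genes. Ly6d stood at 678 and 534 CPM in basal 2 KCs and at 1899 and 1492 CPM in basal 1 KCs. It was 3.00-fold lower, without overlap (log2 change -1.58 ± 0.20 SE, edgeR adjusted p = 0.000122). Ly6a stood at 1.17 and 1.67 CPM in basal 2 KCs, from 5 and 14 UMIs, and at 10.3 and 4.72 CPM in basal 1 KCs (log2 change -2.34 ± 0.55 SE, edgeR adjusted p = 0.0148). The change was -1.58 without KO mouse 1 and -3.21 without KO mouse 2. In melanocytes Ly6a stood at 1.08 and 1.09 CPM, close to its level in basal 2 KCs. Basal aberrant KCs, which were not compared as a stage of their own, held 12 and 9.81 CPM of Ly6a, 34.1 and 27.3 CPM of Ly6e and 1230 and 838 CPM of Ly6d.

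Cell types outside the IFE were compared with basal IFE KCs, the 3 clusters of that name among all cells, which were not drawn along the borders of the IFE stages and also hold basal aberrant KCs. In the comparisons of cell types that follow, counts of members called near or below the share over all genes are no result about the members as a group. The hair follicle held little Ly6a and less Ly6d than basal IFE KCs. Of the 7 members, all tested here, 1 was higher and 2 were lower in hair follicle KCs, beside 36.0% of 14109 genes, and the median log2 change was -0.65 for the members and -0.001 for all genes. Ly6a was counted with 1 and 3 UMIs in the 777 and 1297 hair follicle cells, which is 0.111 and 0.202 CPM, against 8.81 and 5.74 CPM in basal IFE KCs (log2 change -5.44 ± 0.57 SE, edgeR adjusted p = 7.48e-08). It was -4.89 without KO mouse 1 and -6.22 without KO mouse 2. Ly6d stood at 264 and 308 CPM in hair follicle KCs and at 1227 and 867 CPM in basal IFE KCs (log2 change -2.05 ± 0.35 SE, edgeR adjusted p = 4.14e-05). The follicle values lie near the 206 and 318 CPM of melanocytes. Ly6e stood at 35.8 and 38.9 CPM in hair follicle KCs and at 24.2 and 21.5 CPM in basal IFE KCs, without overlap (log2 change 0.53 ± 0.16 SE, edgeR adjusted p = 0.011). This call was lost with cells at or over 5% mitochondrial UMIs left out (log2 change 0.35, adjusted p = 0.439).

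The upper follicle, the part near the skin surface named here from Krt79 and other markers, carried members also seen in differentiated IFE. The upper follicle was compared with the group named hair follicle, which leaves out the dividing follicle KCs and the inner root sheath and hair shaft. Against this group, Lypd3, Ly6d and Ly6g6c were higher and Ly6e was lower, 4 of 7 members, beside 43.2% of all genes. The median log2 change was 1.17 for the members and 0 for all genes. Lypd3 stood at 282 and 259 CPM in the upper follicle and at 21 and 26.3 CPM in the hair follicle group. It was 11.7-fold higher (log2 change 3.55 ± 0.16 SE, edgeR adjusted p = 2.2e-14). Ly6g6c stood at 342 and 315 CPM against 11.9 and 19.4 CPM, again without overlap (log2 change 4.40 ± 0.35 SE, edgeR adjusted p = 2.76e-10). Ly6d stood at 2941 and 3008 CPM against 264 and 308 CPM, 10.8-fold higher (log2 change 3.43 ± 0.37 SE, edgeR adjusted p = 3.5e-08). Slurp1, by contrast, was counted with 3 and 2 UMIs in the upper follicle, 0.423 and 0.266 CPM, no higher than the 0.432 and 0.364 CPM of melanocytes. Ly6e stood at 17.9 and 16.6 CPM in the upper follicle, below the hair follicle group (log2 change -1.07 ± 0.18 SE, edgeR adjusted p = 3.5e-05).

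Within the upper follicle, 78 of 350 and 69 of 348 cells held 5 or more Ly6g6c UMIs, and they held 2286 of its 2422 and 2218 of its 2364 UMIs. These cells also held more Ly6d, at 5137 and 5204 CPM against 2057 and 2154 CPM in the other cells of the upper follicle. Lypd3 was less divided, at 334 and 334 CPM against 261 and 230 CPM. Lypd3 was also measured in the inner root sheath and hair shaft, at 135 and 139 CPM, where Ly6d stood at 112 and 225 CPM and Ly6g6c at 8.42 and 15.8 CPM. There Lypd3 lay above its level in melanocytes in both mice, and Ly6d and Ly6g6c did not.

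In sebaceous cells, 1 member was higher and 3 were lower than in basal IFE KCs, 4 of 7, beside 47.7% of all genes. Over the members the median log2 change was -1.51, and over all genes -0.03. Ly6g6c stood at 983 and 484 CPM in sebaceous cells and at 10.7 and 21.9 CPM in basal IFE KCs. The groups lay far apart (log2 change 5.59 ± 0.36 SE, edgeR adjusted p = 2.16e-12), although the mice differed from each other in sebaceous cells. The log2 change was 4.46 without KO mouse 1 and 6.58 without KO mouse 2. Ly6d stood at 106 and 202 CPM in sebaceous cells, below melanocytes in both mice (log2 change -2.62 ± 0.36 SE against basal IFE, edgeR adjusted p = 1.42e-06). Ly6e stood at 2.69 and 4.95 CPM (log2 change -2.38 ± 0.33 SE, edgeR adjusted p = 1.46e-06). Without KO mouse 1 the changes of Ly6d and Ly6e were -2.10 and -2.12, and without KO mouse 2 they were -3.47 and -3.10. Ly6a had no UMI in sebaceous cells of either mouse, which makes it at least 12-fold lower than in basal IFE KCs, from a floor of 3 counts over the group (edgeR adjusted p = 6.23e-05).

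Sebaceous Ly6g6c came from a small share of the cells. Of 97 and 147 sebaceous cells, 14 and 19 held 5 or more UMIs, and these held 2135 of 2190 and 1420 of 1467 UMIs. The 3 richest cells held 51.4% and 53.2%. None of these cells was called a doublet. As a description of cells picked by Ly6g6c, Awat2, an acyltransferase of wax synthesis, stood at 257 and 181 CPM in them and at 58.3 and 46.0 CPM in the other sebaceous cells. Elovl4, an elongase of very long chain fatty acids, stood at 7977 and 3733 CPM against 206 and 271 CPM. Krt10 stood at 109 and 258 CPM against 325 and 573 CPM, and Ly6d at 66.9 and 106 CPM against 121 and 232 CPM. The cells with Ly6g6c thus had more Awat2 and Elovl4, and less Krt10. Ly6d lay below the 206 and 318 CPM of melanocytes in both sets of cells, so its difference is not read as expression. The cells with Ly6g6c were also deeper, with medians of 27660.5 and 27848 UMIs against 16472 and 14562. Whether depth bears on these differences was not tested.

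The immune clusters carried Ly6e and Ly6a. In the cluster named from Langerhans cell markers, Cd74 stood at 8260 and 4989 CPM, but Cd207, which defines Langerhans cells, only at 3.80 and 0 CPM. Of the 7 members, 3 were higher there than in basal IFE KCs and 1 was lower, beside 49.0% of all genes, with a median log2 change of 0.49 for the members and 0.03 for all genes. Ly6e stood at 443 and 472 CPM against 24.2 and 21.5 CPM in basal IFE KCs, 25.7-fold higher (log2 change 4.68 ± 0.17 SE, edgeR adjusted p = 2.07e-17). It was found in 95.2% and 96.9% of these cells, and in 2.52% and 4.80% of melanocytes. Ly6a stood at 37.3 and 21.9 CPM, from 59 and 47 UMIs, against 8.81 and 5.74 CPM (log2 change 2.37 ± 0.33 SE, edgeR adjusted p = 2.07e-06). Lypd3, at 27.8 and 26.0 CPM, passed the test as higher (log2 change 0.58 ± 0.23 SE, edgeR adjusted p = 0.0354) but lay near the level in melanocytes, and the call was lost under 4 alternatives (log2 change 0.27 without KO mouse 1). Ly6d, at 484 and 416 CPM, was lower (log2 change -0.86 ± 0.34 SE, edgeR adjusted p = 0.0391), a call lost with DESeq2 (adjusted p = 0.0686) and with finer clusters (0.0648).

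In T cells, 52 and 38 in number, 2 of 7 members were higher than in basal IFE KCs and none was lower, beside 33.1% of all genes. Over the members the median log2 change was -0.11, and over all genes -0.15. Ly6e was found in every one of these cells, at 682 and 503 CPM, 24.7-fold higher than in basal IFE KCs (log2 change 4.63 ± 0.18 SE, edgeR adjusted p = 2.25e-16). Ly6a stood at 21.5 and 26.6 CPM from 12 and 11 UMIs (log2 change 1.65 ± 0.52 SE, edgeR adjusted p = 0.0174), a call lost with cells at or over 5% mitochondrial UMIs left out (adjusted p = 0.0692). Ly6d in T cells stood at 1034 and 494 CPM, and its mice overlapped basal IFE KCs (log2 change -0.52, edgeR adjusted p = 0.286). It was called lower with cells at or over 5% mitochondrial UMIs left out (log2 change -1.95, adjusted p = 7.67e-05) and with no filter on low counts (-0.56, adjusted p = 5.47e-05). Slurp1 and Lynx1 had no UMI in T cells.

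Melanocytes held less of some members than basal IFE KCs. Ly6d, Ly6a and Ly6e were lower, 3 of 7 members, beside 51.5% of all genes. This count lies below the share over all genes and is no result about the members as a group. Slurp1, Lynx1, Lypd3 and Ly6g6c did not pass the test. Over the members the median log2 change was -2.12, and over all genes 0.03. Ly6e stood at 2.59 and 5.58 CPM in melanocytes, below every named IFE stage (log2 change -2.47 ± 0.24 SE, edgeR adjusted p = 3.73e-09). Ly6d stood at 206 and 318 CPM (log2 change -2.12 ± 0.35 SE, edgeR adjusted p = 1.4e-05) and Ly6a at 1.08 and 1.09 CPM (log2 change -2.81 ± 0.47 SE, edgeR adjusted p = 2.62e-05). Without KO mouse 1 the changes of Ly6e and Ly6d were -2.07 and -1.57, and without KO mouse 2 they were -3.35 and -2.72. The call of Ly6a was lost with cells at or over 5% mitochondrial UMIs left out (adjusted p = 0.0614). A UMI of Ly6d was nevertheless found in 67.5% and 85.6% of melanocytes, and in 32.8% and 46.9% after thinning to 3000 UMIs. Shares of cells with Ly6d at or under these values are read as background.

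**Figure D5:**
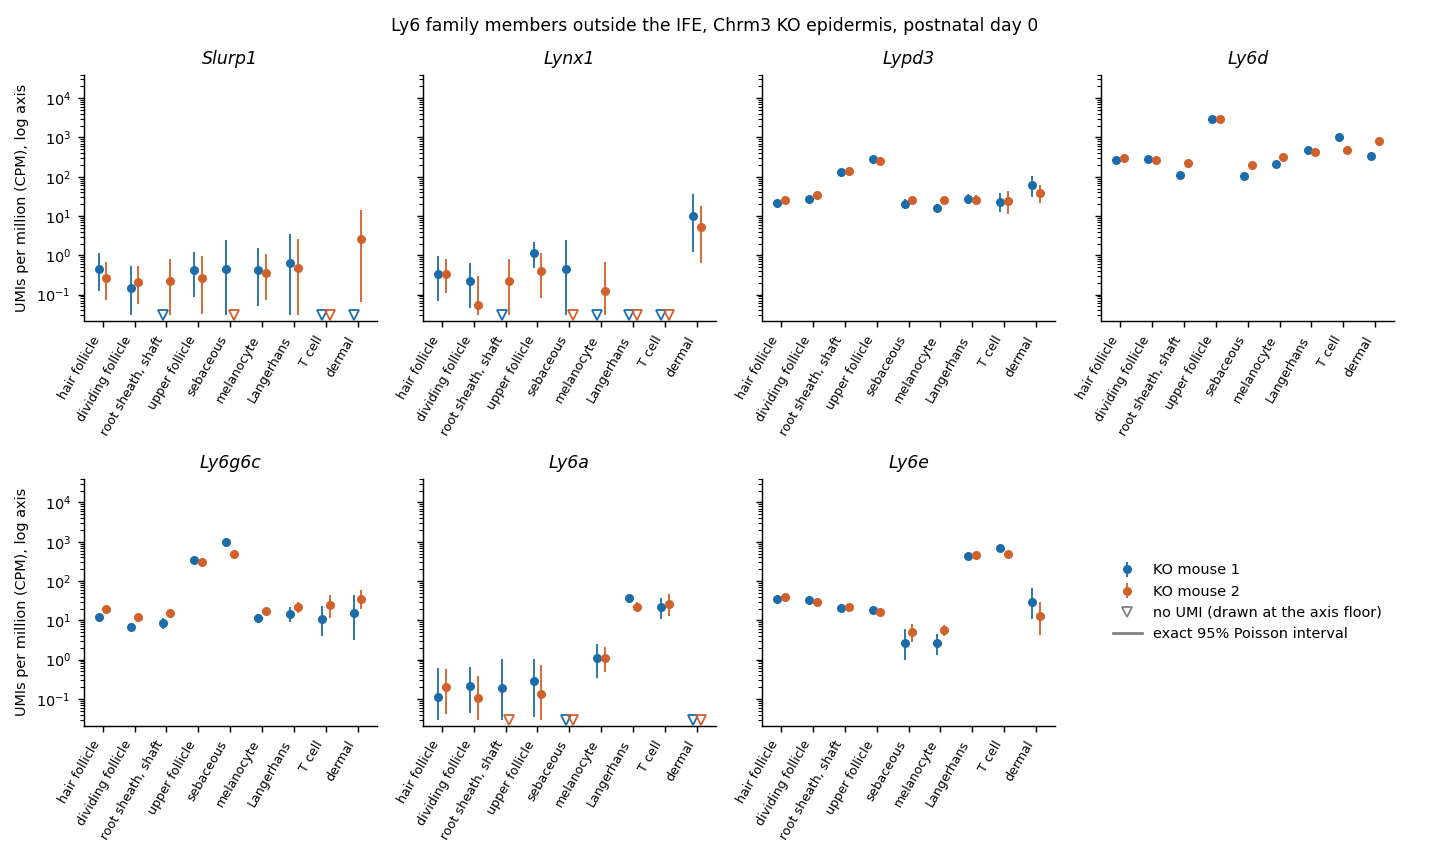
Level of each of the 7 members in cell types outside the IFE (columns), as CPM on a log axis, with 1 point for each KO mouse, exact 95% Poisson intervals as bars and open triangles for no UMI. Ly6e stands highest in the T cell and Langerhans columns, Ly6g6c in the sebaceous and upper follicle columns, and Lypd3 and Ly6d in the upper follicle column.

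Ordered over the 17 named stages and types, the level of Slurp1 was highest in differentiated KCs, 17.6 ± 8.30 CPM (SD, n = 2), and the places after it rest on few UMIs. Terminally differentiated KCs came next from 1 and 2 UMIs, under the level that a count of 0 allows there, and are not read as separate from the groups below them. Ly6d was highest in differentiated KCs at 12070 ± 602 CPM (SD, n = 2), with transition KCs overlapping them at 10698 ± 1372 CPM (SD, n = 2) and the upper follicle next at 2975 ± 47.4 CPM (SD, n = 2). Ly6g6c was 747 ± 53.8 CPM (SD, n = 2) in differentiated KCs and 733 ± 353 CPM (SD, n = 2) in sebaceous cells, which overlapped. Lypd3 was 530 ± 6.63 CPM (SD, n = 2) in differentiated KCs and 270 ± 16.0 CPM (SD, n = 2) in the upper follicle, without overlap. Ly6a was highest in the Langerhans cell-like cluster at 29.6 ± 10.9 CPM (SD, n = 2), and T cells and proliferating basal KCs overlapped in turn. Ly6e was highest in T cells at 593 ± 126 CPM (SD, n = 2), above the Langerhans cell-like cluster at 458 ± 20.9 CPM (SD, n = 2). Merkel cells came next at 90.8 and 102 CPM, from 19 cells in each mouse, fewer than the 30 needed for a test. Lynx1 was highest in the dermal cluster at 7.60 ± 3.47 CPM (SD, n = 2), which rests on 2 UMIs in each mouse.

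A large part of the transcripts of several members came from few cells of the epidermis. Differentiated KCs were 3.43% and 2.48% of the kept cells and held 81.0% and 52.1% of the Slurp1 UMIs, 44.6% and 40.9% of the Ly6g6c UMIs, 38.5% and 32.2% of the Ly6d UMIs and 36.8% and 29.0% of the Lypd3 UMIs. Sebaceous cells, 1.28% and 1.24% of the kept cells, held 21.5% and 13.1% of the Ly6g6c UMIs. The Langerhans cell-like cluster, 1.91% and 1.62% of the kept cells, held 21.5% and 22.1% of the Ly6e UMIs. Shares of UMIs depend on how many cells of each kind were captured.

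The genes with the most similar profile over 32 sums (16 stages and types in each mouse, log2(CPM + 1), 11992 genes) were found by Pearson's r, as a description. The sums share libraries, and the types differ in depth. The profile of Slurp1 was nearest to Rgs20 (r = 0.91), Serpinb3b (0.88) and Stfa2 (0.87). That of Ly6d was nearest to Clca3a2 (0.95), Endou (0.95) and Gltp (0.93), and that of Ly6g6c to Elovl4 (0.96), Sbsn (0.96) and Cst6 (0.96). Lypd3 was nearest to Dsg1a (0.90), a desmosomal cadherin, Pvrl1 (0.90) and Tmem45a (0.88). Among the genes most similar to Ly6a were Sh3bgrl3 (0.81) and Tmsb4x (0.79), and Ly6e was nearest to Psmb8 (0.91), Nfkbid (0.90) and Rcsd1 (0.88). Lynx1 was nearest to Ddr2 (0.86), Mest (0.83) and Galnt9 (0.82), from few UMIs.

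Of 44 other genes of the family that were listed, 39 were in the files. Of these, 24 stayed under 1 CPM in every IFE stage, 9 reached 10 CPM in some IFE stage, and 11 were tested among the IFE stages. From transition to differentiated KCs, 4 were higher and 1 lower, beside 28.1% of all genes called, with a median log2 change of 1.84 against -0.02 for all genes. The gene of Slurp2 (2300005B03Rik in the files), which lies between Slurp1 and Lynx1 and encodes another secreted member, stood at 9.66 and 7.56 CPM in differentiated KCs and at 0 and 0.365 CPM in transition KCs (log2 change 5.23 ± 0.84 SE, edgeR adjusted p = 0.000226). Pinlyp, which lies near Lypd3 on chromosome 7, stood at 41.9 and 33.1 CPM against 1.17 and 1.28 CPM (log2 change 5.01 ± 0.50 SE, edgeR adjusted p = 2.14e-06). Both were thus higher at the same step as Slurp1 and Ly6g6c. The gene of Slurp2 had its highest mean level in terminally differentiated KCs, but there the mice disagreed, at 0 and 23.8 CPM. Cd59a, an inhibitor of complement, was lower at this step, at 13.8 and 10.0 CPM against 30.6 and 26.8 CPM (log2 change -1.15 ± 0.23 SE, edgeR adjusted p = 0.00144).

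From resting basal to transition KCs, none of the 11 was higher and 3 were lower, beside 27.5% of all genes, with a median log2 change of -0.40. Ly6h stood at 14.3 and 14.8 CPM in resting basal KCs and at 0.292 and 0.365 CPM in transition KCs (log2 change -4.13 ± 0.50 SE, edgeR adjusted p = 1.62e-05). From differentiated to terminally differentiated KCs, 1 was higher and 2 were lower, beside 30.6% of all genes, with a median log2 change of 0.45. The higher gene, 2010109I03Rik, lies in the chromosome 15 stretch and stood at 67.9 and 29.3 CPM in terminally differentiated KCs against 0.345 and 1.70 CPM in differentiated KCs (log2 change 5.02 ± 0.64 SE, edgeR adjusted p = 2.42e-05). It was highest at a stage where Ly6d, Lypd3 and Ly6g6c were lower. Ly6g6e, a neighbour of Ly6g6c on chromosome 17, stood at 7.15 and 12.8 CPM in terminally differentiated KCs and at 59.0 and 42.9 CPM in differentiated KCs (log2 change -2.56 ± 0.46 SE, edgeR adjusted p = 0.000553). In the 2 other IFE comparisons, 2 of the 11 were lower in basal proliferating KCs, beside 34.2% of all genes, and 2 were higher in basal 2 KCs, beside 9.62%.

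Genes of the chromosome 15 stretch did not share 1 pattern. Slurp1, Ly6d and D730001G18Rik stood highest in differentiated KCs, 2010109I03Rik in terminally differentiated KCs, Ly6a and Ly6i in the Langerhans cell-like cluster and Ly6e in T cells. Lypd2, next to Slurp1, reached at most 0.517 CPM in any group. Cyp11b1, Cyp11b2 and Gml, which lie inside the stretch, had no UMI in any group.

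Most of the cholinergic genes listed were barely counted in the IFE stages. The list holds the nicotinic receptors, which Slurp1 and Lynx1 are known to modulate, and also muscarinic receptors, choline transporters and enzymes. Of 28 cholinergic genes, all in the files, 23 stayed under 1 CPM in every IFE stage, 1 reached 10 CPM, and only 2 could be tested there, neither of which passed in any of the 5 IFE comparisons (median log2 change -0.43 to 0.60). In sebaceous cells against basal IFE KCs, 3 of the 6 tested were higher and 1 was lower, beside 47.7% of all genes called, with a median log2 change of 1.97 against -0.03 for all genes. Crat, the carnitine acetyltransferase, stood at 443 and 311 CPM in sebaceous cells and at 1.2 and 0.930 CPM in basal IFE KCs (log2 change 8.62 ± 0.21 SE, edgeR adjusted p = 4.38e-20). Chrm2, the M2 muscarinic receptor, was counted with 6 and 6 UMIs in sebaceous cells and with none in basal IFE KCs, at least 29.6-fold higher from a floor of 3 counts over the group (edgeR adjusted p = 5.94e-05). Both genes were picked out of the list after their values were seen.

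Most members need a GPI anchor, and 26 of 27 listed genes for making and trimming it were in the files and tested. From resting basal to transition KCs 5 were higher and none was lower (median log2 change 0.16), beside 27.5% of all genes called, and from transition to differentiated KCs 5 were higher and 1 was lower (0.12), beside 28.1%. From differentiated to terminally differentiated KCs none was higher and 9 were lower (-0.76), beside 30.6%. These counts lie near or below the share over all genes and are no result about the anchor genes. The median for all genes lay between -0.04 and -0.004 at these steps. Pigf, which acts late in building the anchor, stood at 26.0 and 25.4 CPM in transition KCs against 13.4 and 16.4 CPM in resting basal KCs (log2 change 0.82 ± 0.16 SE, edgeR adjusted p = 0.00102). Pgap3, which remodels the lipid of the anchor, was also higher at that step (log2 change 0.67 ± 0.21 SE, edgeR adjusted p = 0.0235). Pgap1, which acts on the finished anchor, stood at 18.8 and 17.0 CPM in differentiated KCs and at 3.58 and 1.83 CPM, from 1 UMI in each mouse, in terminally differentiated KCs (log2 change -3.20 ± 0.74 SE, edgeR adjusted p = 0.00363), and Pigf and Gpaa1 were lower at the same step (log2 change -1.50 ± 0.36 and -1.19 ± 0.37 SE, edgeR adjusted p = 0.00479 and 0.0226). In basal proliferating KCs 2 were higher and 6 lower, beside 34.2%, and in basal 2 KCs none was higher and 2 were lower, beside 9.62%.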

How the data were processed

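UMI counts per gene and cell were deposited by the authors as 1 matrix for each KO library, made with Cell Ranger 3.0.2 on mm10 per the labels, and whether strand was used is not given in the sources used here. The members, gene lists and tests were chosen with earlier results of these data known. The study's limits on barcodes were applied (at least 900 and at most 7700 genes, mitochondrial share below 10%). Cells were clustered with Seurat 5.3.0 (2000 variable genes, 30 dimensions, resolution 0.8), with the members, the other family genes and the cholinergic genes left out. Clusters were named by whichever marker list held most of their 10 leading genes (2 markers, or 1 with a mean log2 enrichment of 0.5 or more, and at least 3 enriched), thresholds set after the clusters were seen. Terminally differentiated KCs were those so named both among all cells and within the IFE. Doublets were called with Scrublet (scanpy 1.11.5) in 176 and 475 cells, at a common limit of 0.2194 because the automatic limit marked 2 cells in KO mouse 1, and were left in.

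Counts were summed by mouse and stage or type, with at least 30 cells per mouse, and fitted with the quasi-likelihood test of edgeR 4.0.16 (R 4.3.3) with Benjamini-Hochberg adjustment over all genes tested, at a threshold of 0.05. The IFE fit held 14 sums and 11658 genes, and the fit over cell types 26 sums and 14109 genes. Stages of 1 mouse share its library, so the p-values measure the spread between the sums of 2 mice and may be too small for mice in general. Sums of the same mouse come from the same animal, and their deviations from the group means correlated at 0.016 to 0.309 (median 0.161, 21 pairs) in the IFE fit and at -0.012 to 0.302 (median 0.056, 78 pairs) in the other. The alternatives were DESeq2 1.42.0, its size factors in edgeR, no filter on low counts, the mouse as a block, called doublets left out, a mitochondrial limit of 5%, resolutions of 0.5 and 1.2, each mouse left out, shares thinned to 3000 UMIs and, added after seeing the data, the whole terminally differentiated IFE cluster. The genes named beside the members are, for each member, the 3 most similar profiles (1 of them is not reported here) and, for the lists of other family genes and GPI anchor genes, up to 3 genes in each direction with the largest log2 change among those called between IFE stages and reaching 10 CPM. The fits were tested on simulated data. Wild-type libraries were not analysed here.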

Additional observations from a re-analysis of the deposited data

Results flagged for a closer look

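The barcodes left out for a mitochondrial share of 10% or more, which enter no comparison, held transcripts of the members above the level of a count of 0. In KO mouse 1, 2777 such barcodes held 34336 UMIs of the 7 members, 13.7% of all their UMIs, at 3342 CPM against 2216 CPM in the kept cells. In KO mouse 2, 3315 such barcodes held 47379 UMIs, 14.9%, at 3826 CPM against 1766 CPM. Lypd3 stood at 405 and 453 CPM in them, against 88.7 and 78.8 CPM in the kept cells, and 30.4% and 30.3% of its UMIs lay there. Slurp1 stood at 3.60 and 4.77 CPM against 1.77 and 0.981 CPM, with 17.4% and 28.2% of its UMIs. Of the Ly6a UMIs 3.17% and 4.34% lay there, and of the Ly6e UMIs 5.74% and 4.32%. Which cells these barcodes stand for was not tested.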

How the results depend on the processing

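Of the log2 changes of members recomputed with both mice, 509 kept their side of the threshold, 18 newly passed it and 11 no longer did. The 2 called changes that changed sign are not in these counts and are given below. Direction was followed only for changes called in the main fit. Of those, 250 kept their direction and their call, and 2 changed sign. The 2 belong to resolution 1.2, where the Flg-led cells leave the differentiated stage: Slurp1 from transition to differentiated KCs (-0.87, adjusted p = 0.82) and Ly6g6c from differentiated to terminally differentiated KCs (1.40, adjusted p = 0.00757). Members called were then 2 in place of 5 from transition to differentiated KCs, and genes called 878 in place of 3281. At resolution 0.5, 5 members were called from resting basal to transition KCs (with Ly6g6c and Lynx1), and no differentiated stage was found. From differentiated to terminally differentiated KCs, 5 members were called with DESeq2, 5 with no filter and 5 with the whole cluster (each with Ly6e and Slurp1), and genes called were 5608 with the whole cluster and 2007 at the 5% mitochondrial limit, in place of 3572. In basal proliferating KCs 4 members were called with no filter and 4 with the replicate block. The block also gave 2330 genes in place of 1122 between basal 2 and basal 1 KCs, and beside the calls given in the report it changed no other call of a member. At the 5% limit genes called were 2374 in place of 5075 for the hair follicle, 4214 in place of 6733 for sebaceous cells and 4358 in place of 7268 for melanocytes. With 1 mouse left out there is no test. Of these log2 changes 90 stayed within the spread and 54 moved, and none that was called changed sign. Few UMIs limit Slurp1, Lynx1 and Ly6a in the small groups.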
